A study of Mus musculus with 2 samples.

Results

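Striated muscle transcripts were measured in the newborn mouse thymus through 39 genes of the cardiac and skeletal sarcomere and its calcium supply. The genes were picked by symbol, with no threshold on their values, and each of the 39 had a row among the 43346 mouse genes of the tables. By the muscle in which each is best known they fall into 15 heart genes (5 atrial, 3 ventricular, 7 of all chambers), 14 skeletal genes (3 slow, 9 fast, 2 developmental) and 10 genes that several striated muscles use. The list is wider than the sarcomere itself. Nppa encodes a hormone, Ckm and Mb serve energy and oxygen supply, and Sln, Pln, Ryr1, Ryr2, Atp2a1 and Atp2a2 handle calcium.

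The study sequenced RNA of more than 200 nt from whole thymus tissue of postnatal day 0 mice of strain B6NCrl. It has 1 group of 2 libraries, each from 13 pg of total RNA, which the labels equate with 1 cell, although the assay is labelled single cell RNA-seq and the RNA came from tissue. Pup 6 of a Charles River C57/Bl6 female gave replicate 1 and pup 7 gave replicate 2, with spike-in RNA added to both, no sex recorded and the same donor listed for both. There is no treatment, genotype or second tissue to compare, so each gene has 1 value per pup and no test is possible. A difference between the libraries holds the pup, the sampled RNA and the library preparation together. In RNA from whole tissue, fewer muscle cells and less RNA per cell cannot be told apart.

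Muscle contracts when myosin heavy chains, carried with essential and regulatory light chains in the thick filament, pull on actin in the thin filament. Troponins T, I and C and tropomyosin block or open the actin sites as calcium leaves the sarcoplasmic reticulum through ryanodine receptors and returns through SERCA pumps. Heart and skeletal muscle use different genes of the same protein families, and the thymus is known to hold a few muscle-like myoid cells and epithelial cells that express genes of other organs.

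Because these families are built from close copies, the bases that separate a member from its nearest relative decide which gene a read was given to. The first set of sequences therefore shows 60 coding bases of each of 3 heart genes beside the matching stretch of its relative, with capitals at the bases that differ. They were read 5′ to 3′ from GENCODE M21 transcripts (GRCm38), and positions count from the A of the start codon. The cardiac actin gene Actc1 (chromosome 2, 114047282 to 114053548, minus strand) and the skeletal actin gene Acta1 (chromosome 8, 123891769 to 123894751, minus strand) differ at 15 of the 60 bases from position 436 to 495.
Actc1: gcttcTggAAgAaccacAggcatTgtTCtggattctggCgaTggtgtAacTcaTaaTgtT
Acta1: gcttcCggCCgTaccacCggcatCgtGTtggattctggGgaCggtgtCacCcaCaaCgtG
The alpha myosin heavy chain gene Myh6 (chromosome 14, 54941921 to 54966927, minus strand, positions 3226 to 3285) and the beta chain gene Myh7 (chromosome 14, 54970684 to 54994626, minus strand, positions 3220 to 3279) differ at 27 of 60.
Myh6: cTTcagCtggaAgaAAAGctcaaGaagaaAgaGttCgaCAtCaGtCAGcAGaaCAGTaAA
Myh7: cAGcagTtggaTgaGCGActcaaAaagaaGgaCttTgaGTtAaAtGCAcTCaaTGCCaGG
The atrial regulatory light chain gene Myl7 (chromosome 11, 5896637 to 5898782, minus strand, positions 186 to 245) and the ventricular one, Myl2 (chromosome 5, 122100951 to 122113472, plus strand, positions 162 to 221), differ at 31 of 60.
Myl7: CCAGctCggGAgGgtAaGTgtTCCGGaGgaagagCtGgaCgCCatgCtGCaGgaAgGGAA
Myl2: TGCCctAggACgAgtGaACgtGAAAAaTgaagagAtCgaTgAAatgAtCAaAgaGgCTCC

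These stretches were chosen where the pairs differ most. Over the whole aligned coding sequence, identical bases made up 86.3% between Actc1 and Acta1, with a longest shared run of 29 bases. Between Myl7 and Myl2 the share was 64.5% and the longest run 16 bases. Myh6 and Myh7 were closer, at 91.7% with a run of 245 bases, and Myh1 and Myh2 had 91.1% with a run of 268. When each member's transcripts were divided into overlapping 100-base windows, 30 of 39 members shared no window with another gene. The other 9 shared 1% or more. Myh6 shared 10.0% of its windows with Myh7, and the other heavy chains shared 9.24% (Myh1), 7.80% (Myh2), 7.71% (Myh7), 3.85% (Myh4), 3.38% (Myh8) and 1.13% (Myh3). Myl1 shared 4.45% with the pseudogene Mylf-ps, and Atp2a2 shared 1.39%. The levels of the heavy chains therefore carry some uncertainty from how the authors' estimate divided shared reads.

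The second set shows a promoter element that several members hold, with the muscle gene motif known as the CArG box, the site of serum response factor, in capitals. Windows of 250 bases before RefSeq gene starts (GRCm38.p6) were searched on both strands, and 33 of 39 members had 1 or more such windows, 41 in all.
Acta1 (chr8:123894814-123894873, minus strand, box starting at -73): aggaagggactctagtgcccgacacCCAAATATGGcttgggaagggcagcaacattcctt
Actc1 (chr2:114052888-114052947, minus strand, box starting at -47): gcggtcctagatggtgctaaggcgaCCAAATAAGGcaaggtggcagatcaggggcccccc
Myl7 (chr11:5898809-5898868, minus strand, box starting at -61): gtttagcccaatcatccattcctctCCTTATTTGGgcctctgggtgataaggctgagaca
The CArG box was in 7 of the 41 member windows (17.1%), in Acta1, Actc1, Ldb3, Myh4, Myl3 and Myl7, and in 1.47% of the 32851 windows of the table. The Ldb3 box is a single stretch that entered the count through more than 1 overlapping window, at -35 and -109 from their starts. The letters TATAAA were in 24.4% of member windows against 12.4%, the E-box CANNTG in 82.9% against 66.2%, and the site of MEF2 factors in 9.76% against 2.92%. In 3 member windows, those of Myh1, Myh4 and Myh8, a TATAAA match shared bases with a MEF2 match, and no other pair of these motifs overlapped in a member window. Such matches describe letters and do not show that a factor binds. The 6 members with a CArG box had very different levels in these libraries, from Actc1 and Myl7 among the highest members to Myh4 and Myl3, at or below 6 counts in both libraries.

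Depth limits what a value near 0 can show. The tables held 25999043 expected counts in mouse genes in replicate 1 and 31902773 in replicate 2, with spike-ins at 3.72% and 3.27% of all counts. A count of 0 allows up to 3 counts, which is 0.115 and 0.0940 in each 1000000 mouse counts. Such limits, and the intervals given for ratios, cover counting error only.

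Levels are in TPM, transcripts per 1000000 after correction for transcript length, rescaled to mouse genes. The 39 genes summed to 2313 TPM in replicate 1 and 746 TPM in replicate 2 (1530 ± 1108, SD, n = 2). In counts they took 0.188% and 0.0563% of the mouse total (0.122% ± 0.0930). The sum was higher in replicate 1, and a few genes gave most of it. The 5 highest members held 58.5% of it in replicate 1 (Actc1, Nppa, Sln, Myl7, Tnni3) and 58.9% in replicate 2 (Myl7, Actc1, Myl1, Mylpf, Myl4). Actc1 and Myl7 were in both sets.

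At 1 or more counts, both libraries held 29 of the 39 members, 1 library alone held 7, and 3 (Pln, Myh2 and Mb) were in neither. Of all mouse genes 19% were read in both libraries, and of those read in either, 59.8%. A stricter reading gave fewer: 17 members had 10 or more counts in both libraries, 9 were under 10 in both, and 11 reached 1 TPM in both. At 10 TPM, 8 members passed in both libraries, 9 in replicate 1 alone, 5 in replicate 2 alone and 17 in neither. The shares over all mouse genes were not computed at these stricter cuts, so these counts show nothing particular to muscle genes.

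**Figure D1:**
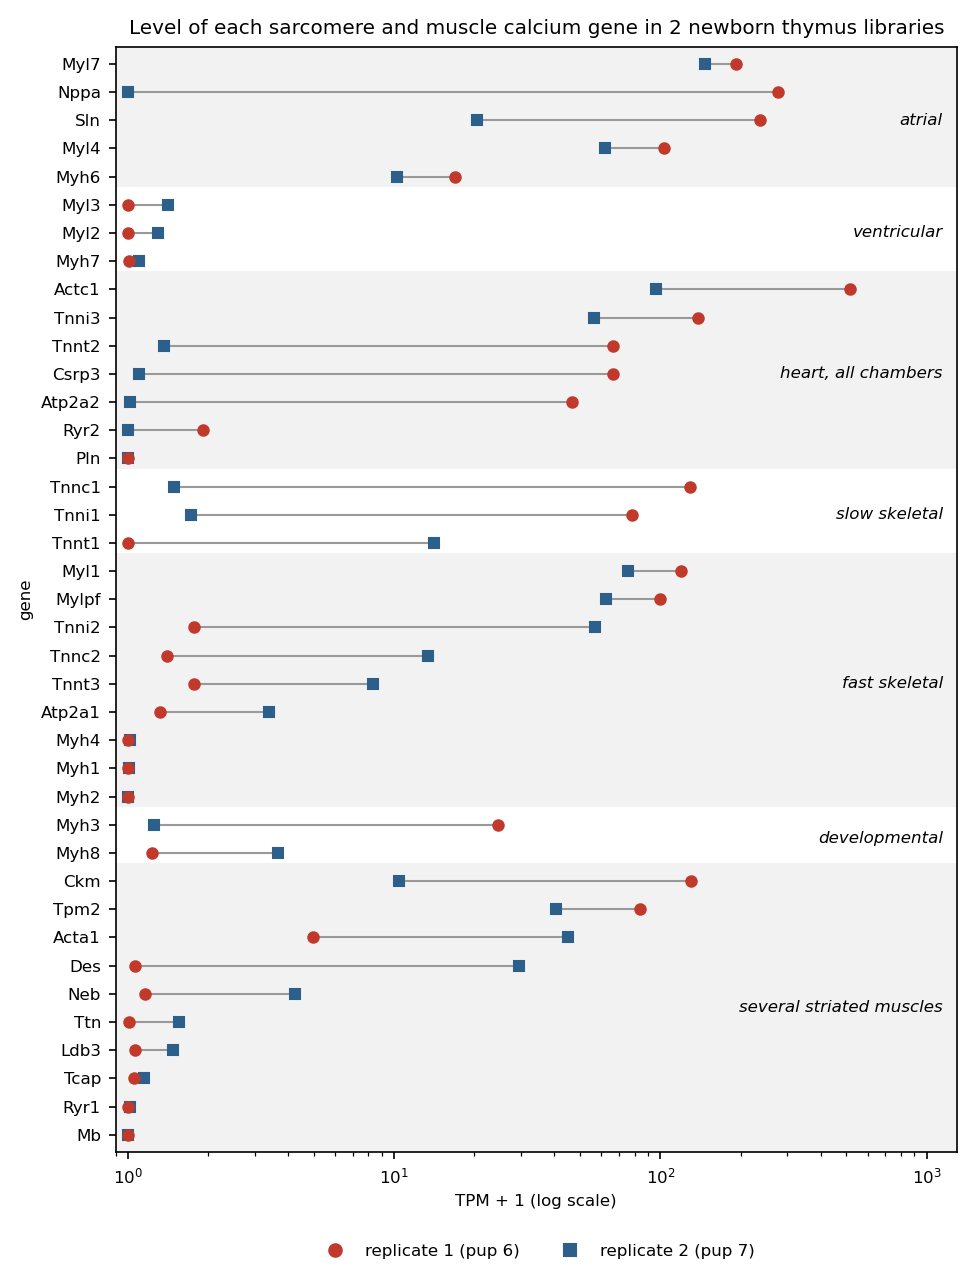
TPM + 1 on a log axis for each of the 39 genes, grouped by the muscle in which each is best known; circles are replicate 1, squares are replicate 2, and the line joins the 2 libraries of a gene. Myl7, Myl4, Myl1 and Mylpf have short lines, while Nppa, Tnnt2, Csrp3, Atp2a2, Tnnc1 and Tnni1 are high in replicate 1 alone and Tnni2 and Des in replicate 2 alone.

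Of the atrial genes, Myl7 was the steadiest high member, at 192 TPM in replicate 1 and 147 TPM in replicate 2 (169 ± 32.1). Its partner Myl4, the essential light chain of the atrium and of embryonic muscle, stood at 102 and 60.8 TPM (81.4 ± 29.1). Myh6, the fast heavy chain of the atrium and of the adult mouse ventricle, stood at 15.9 and 9.28 TPM (12.6 ± 4.67), from 1941 and 1257 counts. All 3 differed by less than 4-fold. The other atrial genes did not keep to one level. Sln, sarcolipin, an inhibitor of SERCA pumps, stood at 236 and 19.5 TPM, from 2007 and 187 counts. Nppa, the atrial natriuretic peptide (chromosome 4, 148000722 to 148002079, plus strand), had 275 TPM from 4312 counts in replicate 1 and 0 counts in replicate 2. In counts that is at least 1764-fold higher in replicate 1 against the floor of 3 counts per library. The 5 atrial genes summed to 821 and 236 TPM.

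The ventricular genes were close to absent from both libraries. Myh7, the slow heavy chain, had 1.21 and 15.0 counts (0.0107 and 0.107 TPM). Myl2, the ventricular regulatory light chain, had 0 and 3 counts, and Myl3, the essential light chain of ventricle and slow muscle, had 0 and 6. Summed, the 3 genes reached 0.0107 and 0.822 TPM. In replicate 2 the atrial sum was 287 times the ventricular sum, and in replicate 1 the ventricular sum rested on about 1 count, so no ratio is given. With the exception of Nppa in replicate 2, each atrial gene had more counts than the 3 ventricular genes together.

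Among genes of all heart chambers, Actc1, the cardiac alpha actin, was the highest of the 39 on average, with 513 TPM in replicate 1 and 95.2 TPM in replicate 2 (304 ± 295). It held 22.2% and 12.8% of the summed level of the 39 genes. Tnni3, the cardiac inhibitory troponin (chromosome 7, 4518305 to 4524229, minus strand), stood at 138 and 55.4 TPM (96.5 ± 58.2). Both were abundant in both libraries and higher in replicate 1. The next 3 genes were high in replicate 1 alone. Tnnt2, cardiac troponin T, had 65.2 and 0.374 TPM, from 1358 and 8 counts. Csrp3, a LIM protein of the Z-disc, had 1063 and 2 counts, a ratio of 652 (95% exact counting interval 180 to 5392). Atp2a2, the SERCA pump of heart and slow muscle, had 3951 and 2 counts, a ratio of 2424 (671 to 20023). Ryr2, the cardiac ryanodine receptor, had 316 and 0 counts, at least 129-fold by the floor, though its long transcript put it at 0.920 TPM in replicate 1. Pln, phospholamban, the partner of Atp2a2 in the ventricle, was at 0 in both. Cep85l, which overlaps Pln on the opposite strand, had 15.2 and 2.31 TPM.

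The 15 heart genes summed to 1649 TPM in replicate 1 and 388 TPM in replicate 2 (1018 ± 892). Of the 11 that averaged at least 10 counts, 11 were higher in replicate 1, with a median log2 ratio of replicate 2 over replicate 1 (TPM + 1) of -2.42. Of the 7 with more than 3 counts in both libraries, 7 were higher in replicate 1. Over the 10797 mouse genes that averaged at least 10 counts the same median was 0.17, with 5055 higher in replicate 1 and 5742 in replicate 2. The minimum of 10 counts left out Pln, and also Myh7, Myl2 and Myl3, each with more counts in replicate 2 (15.0 or fewer). Nppa, Ryr2, Csrp3, Atp2a2 and Tnnt2 reached 10 counts in replicate 1 alone. The 7 are among the 11. The 15 are not independent of one another, since they can share a source in the tissue.

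**Figure D2:**
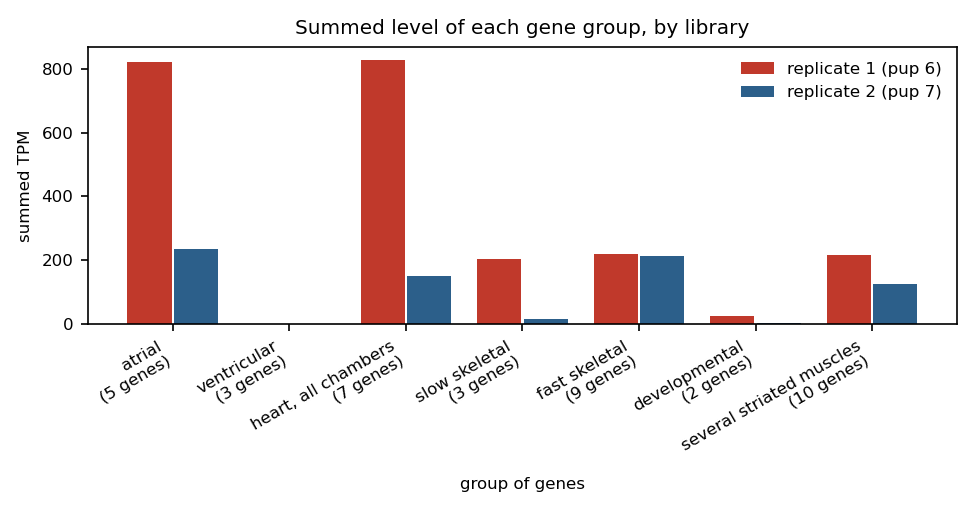
Summed TPM of each of the 7 gene groups in replicate 1 and replicate 2; each bar is 1 library, so there are no error bars. The atrial and all-chamber bars reach 821 and 827 TPM in replicate 1 against 236 and 151 in replicate 2, the fast skeletal bars stand at 219 and 214, and the ventricular bars are under 1 TPM.

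The slow skeletal genes, which encode the troponins of slow fibres, split by library. Tnnc1, troponin C of slow muscle and heart, had 128 and 0.491 TPM, from 1628 and 7 counts. Tnni1, slow troponin I, which the fetal heart also uses, had 76.9 and 0.726 TPM, from 1546 and 14 counts. Tnnt1, slow troponin T, went the other way, with 0 counts in replicate 1 and 281 in replicate 2 (13.1 TPM), at least 76.3-fold by the floor. The 3 summed to 205 and 14.3 TPM, and 2 of the 3 are genes that heart muscle expresses too.

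The fast skeletal genes had nearly the same sum in both libraries, 219 and 214 TPM (217 ± 3.25), but not from the same members. Myl1, the fast essential light chain, stood at 118 and 74.8 TPM (96.6 ± 30.9), and Mylpf, the fast regulatory light chain, at 98.4 and 61.8 TPM (80.1 ± 25.9). These light chains made up most of the sum in replicate 1. In replicate 2 the fast troponins joined them. Tnni2, fast troponin I, had 0.770 and 55.7 TPM, from 10 and 811 counts. Tnnc2, fast troponin C, had 5 and 173 counts, and Tnnt3, fast troponin T, had 15 and 163 counts. Atp2a1, the SERCA pump of fast fibres, had 10 and 123 counts. The adult fast heavy chains were hardly read: Myh4 had 0 and 3.07 counts, Myh1 0 and 1.02, and Myh2 0 in both.

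The developmental heavy chains were read in both libraries and differed in opposite directions. Myh3, the embryonic chain, had 23.6 and 0.256 TPM, from 2862 and 35.0 counts, while Myh8, the perinatal chain, had 0.235 and 2.68 TPM, from 29 and 375 counts. With the slow and fast genes, the 14 skeletal genes summed to 448 and 232 TPM (340 ± 153). Of the 11 that averaged at least 10 counts, 5 were higher in replicate 1 and 6 in replicate 2, with a median log2 ratio of 1.36. Heart genes made up 78.6% of the heart plus skeletal TPM in replicate 1 and 62.6% in replicate 2 (70.6% ± 11.3). With genes that other striated muscles also use left out on both sides, the share was 83.3% and 59.7% (71.5% ± 16.7). By either list as drawn, the larger part of the TPM came from heart genes in both libraries. In replicate 2 the shorter lists, of 5 heart and 10 skeletal genes, summed to 211 and 143 TPM. Those lists left out Myl1, at 74.8 TPM there, so which part is larger in replicate 2 depends on where Myl1 is placed. The shorter heart list also left out Actc1, Sln, Myl4 and Tnnt2, which the full list counts as heart. Counting those genes as skeletal was not tried, and in both libraries the larger part rests on where they are placed.

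Genes that several striated muscles use summed to 216 and 126 TPM (171 ± 64.0). Ckm, the muscle creatine kinase, stood at 129 and 9.41 TPM, from 3471 and 286 counts. Tpm2, beta tropomyosin, stood at 83.1 and 39.6 TPM (61.4 ± 30.7). Those 2 were higher in replicate 1, and the other 5 that averaged at least 10 counts were higher in replicate 2. Acta1, skeletal alpha actin, had 3.96 and 44.1 TPM, from 108 and 1358 counts. Des, desmin, the intermediate filament of muscle, had 0.0642 and 28.4 TPM, from 4 and 1247 counts. Neb and Ttn, the giant rulers of the thin filament and of the whole sarcomere, had 7 and 1501 counts and 7 and 188 counts. Their TPM, 0.160 and 3.25 for Neb and 0.0107 and 0.555 for Ttn, rests on transcripts of very different length in the 2 libraries, 2302 and 20103 bases for Neb and 45356 and 14840 for Ttn. Ldb3, a Z-disc protein, had 2 and 31 counts, a ratio of 12.6 (3.21 to 109). Tcap had 1 and 3 counts and Ryr1, the skeletal ryanodine receptor, 1 and 9, while Mb, myoglobin, was at 0 in both.

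Within protein families, the libraries differed in which gene carried the family. Troponin T was 98.8% Tnnt2 in replicate 1, and 62.9% Tnnt1 with 35.4% Tnnt3 in replicate 2, by TPM. Troponin C was 99.7% Tnnc1 in replicate 1 and 96.2% Tnnc2 in replicate 2. Troponin I was shared by Tnni3 (63.9%) and Tnni1 (35.7%) in replicate 1 and by Tnni2 (49.8%) and Tnni3 (49.5%) in replicate 2. By the larger shares, replicate 1 held cardiac and slow troponin forms, and replicate 2 held fast forms together with slow troponin T and cardiac troponin I. Troponin C carries a caution, since Tnnc1 overlaps Nisch on the opposite strand (80.4 and 301 TPM) and Tnnc2 overlaps Ube2c (350 and 197 TPM). Nisch and Tnnc1 went in opposite directions between the libraries, as did Ube2c and Tnnc2. Atp2a1 overlaps Rabep2 (62.2 and 76.0 TPM), and Acta1 overlaps Gm20388 (0 and 23.8 TPM), which is higher in the same library as Acta1. Whether the counting used strand is not stated, so the part of these neighbours in the 4 genes was not tested.

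**Figure D3:**
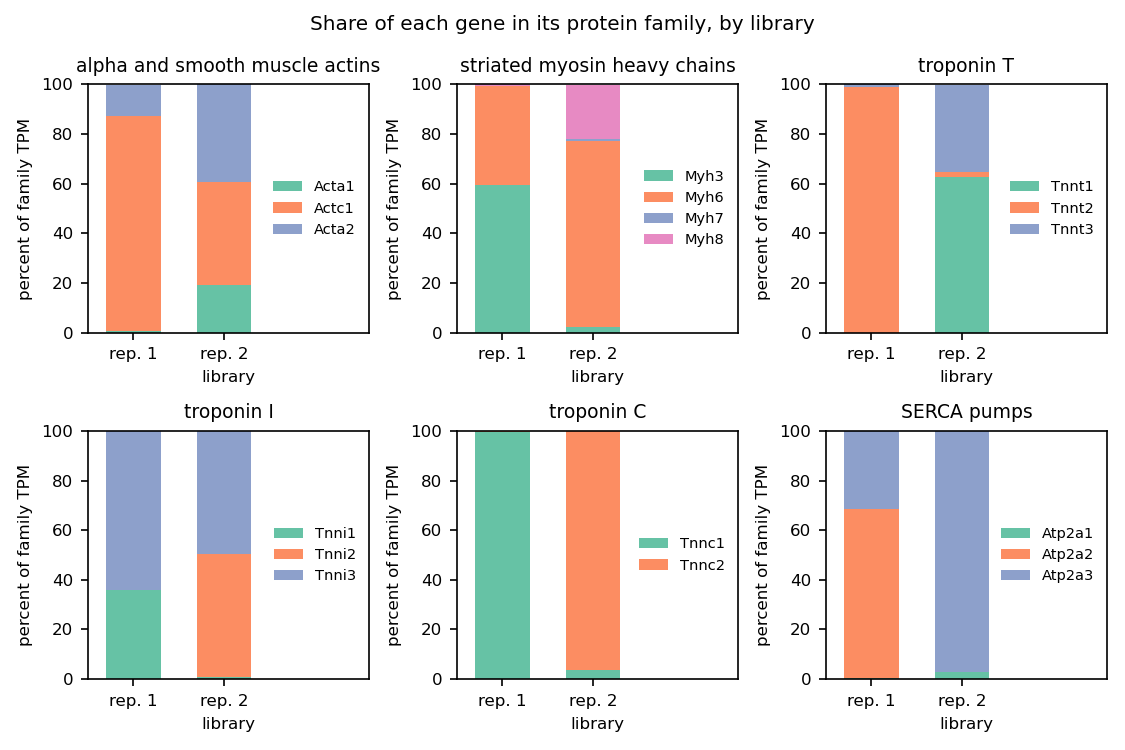
Percent of the TPM of 6 protein families held by each gene, 1 stacked bar per library (genes under 0.5% in both libraries are not drawn). Troponin T changes from 98.8% Tnnt2 to 62.9% Tnnt1, troponin C from 99.7% Tnnc1 to 96.2% Tnnc2, and the SERCA pumps from 68.1% Atp2a2 to 97.2% Atp2a3.

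The striated heavy chains were 59.4% Myh3 and 40.0% Myh6 in replicate 1, and 75.1% Myh6 and 21.7% Myh8 in replicate 2. Against all heavy chains of the myosin II class the members were a small part, 15.4% and 5.19%, since nonmuscle Myh9 held 71.8% and 69.2%. The light chains repeated that order, with nonmuscle Myl6 at 85.3% and 90.6% of essential light chains, Myl1 at 7.92% and 5.18%, and Myl4 at 6.82% and 4.21%. Myl7 held the same share of the regulatory light chains in both libraries, 12.2% each, beside Mylpf at 6.24% and 5.14%. Among alpha actins and smooth muscle actins, Actc1 held 86.7% and 41.5%, Acta1 0.669% and 19.2%, and smooth muscle Acta2 12.6% and 39.3%. Against all actins, where Actb held 73.5% and 76.3%, Actc1 was 6.04% and 1.33%. Tpm2 held 9.20% and 4.79% of tropomyosin, a family led by Tpm3. The SERCA pumps were 68.1% Atp2a2 in replicate 1, and 97.2% Atp2a3, the pump of blood cells and other nonmuscle cells, in replicate 2. Atp2a2 is also the pump that most nonmuscle cells use, and it had 2 counts there.

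Members that lie close together on a chromosome did not always share a level. Tnni1 and Tnnt2 lie 25364 bases apart on chromosome 1, with 1 coding gene between them, and were both far higher in replicate 1. Tnni2 and Tnnt3 lie 54425 bases apart on chromosome 7, also with 1 coding gene between them, and were both higher in replicate 2. Tnnt1 and Tnni3 lie 1922 bases apart on the same chromosome with none between them, yet Tnnt1 was read in replicate 2 alone and Tnni3 in both. Among the 5 members in the skeletal heavy chain cluster on chromosome 11, the outermost, Myh3 and Myh8, were read at 10 or more counts in both libraries, and Myh2, Myh1 and Myh4 between them had 3.07 counts or fewer.

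Differences between the libraries were not particular to muscle genes. Of the 24 members that averaged at least 100 counts, 14 were 4-fold or more apart in TPM + 1, beside 50.9% of the 9341 mouse genes at that depth. Of the same 24, 10 were at least 4-fold higher in replicate 1, beside 21.5% of the 9341 genes, and 4 in replicate 2, beside 29.4%. Among the 20 members with a mean of 10 TPM or more, 13 differed at least 4-fold, beside 45.9% of 7872 genes. Over all genes, too, about as many were 4-fold apart as were not, and among the members more were higher in replicate 1. For the 29 members that averaged at least 10 counts, their median log2 ratio was -0.72, with 18 higher in replicate 1 and 11 in replicate 2. Scaled by edgeR's TMM factors or DESeq2's size factors this median was -0.61 or -0.57.

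**Figure D4:**
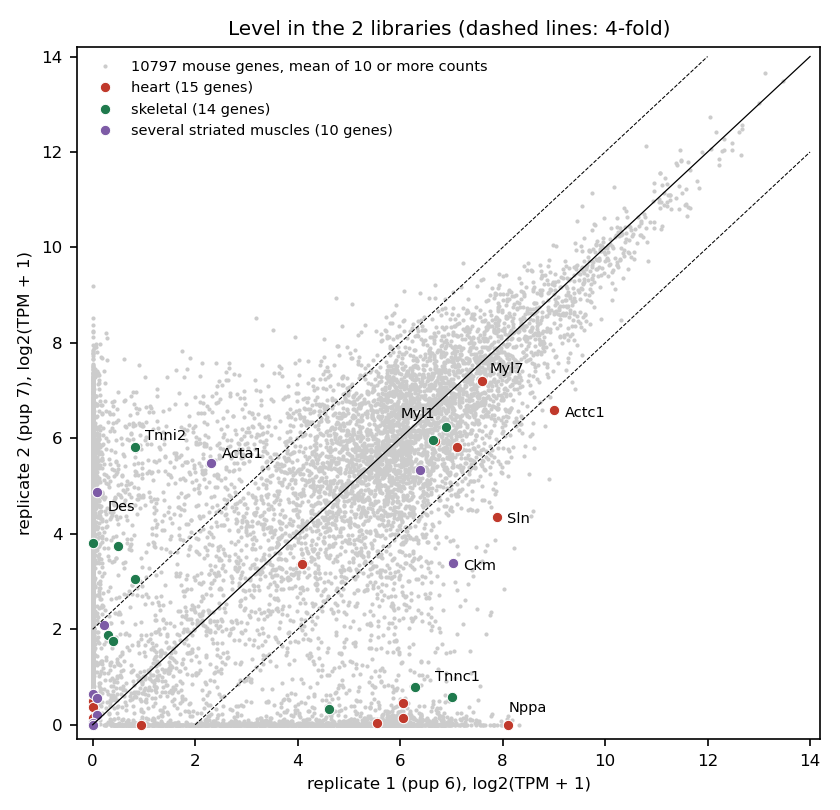
log2(TPM + 1) in replicate 1 (horizontal) against replicate 2 (vertical) for 10797 mouse genes that averaged at least 10 counts (grey) and the 39 members (coloured by heart, skeletal or several muscles); the solid line marks equal levels and the dashed lines a 4-fold difference. Myl7 and Myl1 lie near the solid line, Actc1, Sln, Ckm, Tnnc1 and Nppa below the dashed band, and Tnni2, Acta1 and Des above it.

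The leading transcript was mostly the same where both libraries could be read. Of 15 members with a mean of 10 TPM or more and several annotated transcripts, 7 were at 1 TPM or more in both libraries, and 6 of the 7 had the same leading transcript in both. Myl1-202 held 60.4% and 93.6% of Myl1, and the longer Myl1-201 held 39.6% and 5.43%. Tnni3-201 held 82.6% and 87.4%, Mylpf-201 68.2% and 89.8%, and Tpm2-203 68.4% and 66.4%. The exception was Myl4, where Myl4-204, annotated as retaining an intron, held 58.3% in replicate 1 and 20.7% in replicate 2, while the coding Myl4-202 held 41.6% and 63.1%. Where a gene had few counts in 1 library, its split there rests on those counts. Atp2a2-202, a coding transcript, held 86.4% of Atp2a2 in replicate 1 and 100% in replicate 2, the latter from 2 counts. Tnnt2-211, Tnnt2-207 and Tnnt2-205 held 50.2%, 33.7% and 15.6% of Tnnt2 in replicate 1. In replicate 2, from 8 counts, Tnnt2-207 led with 51.4%, before Tnnt2-211 with 34.3% and Tnnt2-214 with 14.3%. In replicate 2, Des-201 held 53.1% of Des and Des-202, annotated as retaining an intron, held 46.9%.

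Other muscle genes were taken from 5 further lists. Of their 66 genes of muscle structure, calcium, energy and regulation, both libraries held 25, 1 library alone held 23, 18 were in neither, and 39 were under 10 counts in both. They summed to 734 and 466 TPM. Of the 13 that averaged at least 100 counts, 7 were at least 4-fold higher in replicate 1, 3 in replicate 2 and 3 were closer than that. The 23 genes of Z-disc, M-band and filament assembly summed to 164 and 294 TPM. Nebl, nebulette, led them with 107 and 171 TPM. Cryab, the small heat shock protein of muscle and lens, had 1 and 2938 counts, a ratio of 2394 (429 to 94602), and Unc45b, a myosin chaperone, had 1744 and 2, a ratio of 1070 (296 to 8842). Actn2, the alpha actinin of the Z-disc, had 3 and 90 counts.

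Of 12 calcium and excitation genes, 3 were read in both libraries. Casq2, cardiac calsequestrin, had 48.1 and 0.886 TPM, in the same library as Ryr2 and Atp2a2, while S100a1, a calcium sensor, had 0 and 715 counts. The 9 energy genes summed to 332 and 85.9 TPM. Pygm, muscle glycogen phosphorylase, had 166 and 1.12 TPM and Ampd1, the muscle AMP deaminase, 63.9 and 0.224 TPM. Cox7a1, a muscle form of a cytochrome oxidase subunit, stood at 102 and 75.5 TPM. Of the 5 energy genes that averaged at least 10 counts, these 3 were higher in replicate 1, as Ckm was. The remaining 2 were higher in replicate 2: Eno3, muscle enolase, had 10 and 125 counts, and Pgam2, the muscle phosphoglycerate mutase, had 4 and 40. Cox6a2 (0 and 18 counts) and Ckmt2 (0 and 10) were read in replicate 2 alone.

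The 9 heart regulators and stress genes summed to 154 and 11.5 TPM. Nppb, the hormone gene next in kind to Nppa, had 835 and 0 counts, and Ankrd1, a cardiac ankyrin repeat protein, 2050 and 0, at least 342-fold and 839-fold by the floor. Smpx had 657 and 4 counts. The transcription factor Tbx5 was reversed, with 0 and 998 counts, at least 271-fold. The heart factors Nkx2-5, Gata4, Gata6, Tbx20 and Hand2, named after their values were seen, were at 0 in both. Of 13 skeletal muscle regulators and receptor subunits, 3 were read in both libraries, and Mef2c, which lymphocytes also express, gave nearly all of their 33.5 and 18.3 TPM. Myod1, Myf5 and Pax7, also named after their values were seen, were at 0 in both, and Mymk, the fusion factor, had 1 and 10 counts.

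Markers of other tissues were read beside the muscle genes. The 10 T-lineage markers, the defining genes of the organ's main cell, were read in both libraries and summed to 5600 and 5414 TPM, none 4-fold apart. The 9 thymic epithelium markers summed to 2577 and 2763 TPM, with 8 read in both. Foxn1, the factor that defines thymic epithelium, had 0 and 1129 counts, and Aire, which drives organ-restricted genes in medullary epithelium, had 1.18 and 26.5 TPM. Aire was picked out once its values were known, as was the keratin gene Krt14, with 2 and 1476 counts. Psmb11, the proteasome subunit of cortical epithelium, had 87.8 and 16.3 TPM, and the keratin gene Krt5 had 97.1 and 54.1 TPM. Of the 9 markers, 1 was at least 4-fold higher in replicate 1 and 3 in replicate 2. Most of the nearly level sum came from Krt8 (772 and 846 TPM), Krt18 (735 and 1045) and Ccl25 (857 and 657). The 9 smooth muscle genes summed to 233 and 357 TPM, 5 of them read in both. Myl9 stood at 121 and 200 TPM, Acta2 at 74.8 and 90.4, Cnn1 at 32.1 and 0.0214 and Tagln at 0 and 33.5. Smtn had 0 and 1276 counts and Lmod1 0 and 722. Of the 8 smooth muscle genes that averaged at least 10 counts, 2 were higher in replicate 1 and 6 in replicate 2. The 7 erythroid genes, read in both libraries, summed to 3527 and 9133 TPM. Endothelial markers (3 of 6 read in both) summed to 290 and 121 TPM, mesenchymal ones (6 of 7) to 1533 and 1314, and nerve ones (3 of 5) to 68.3 and 62.3. Among the endothelial markers Cldn5 had 1888 and 0 counts, while Cdh5 had 102 and 2296. The nerve sums came from different genes, Tubb3 with 2459 and 3 counts and Elavl4 with 3 and 1820. Of 5 fat markers, Fabp4, which endothelium also expresses, carried the sums of 430 and 216 TPM, and the other 4 had 2 counts or fewer in each library. Of 4 parathyroid and thyroid markers none was read in both, with 799 counts of Pth in replicate 1 and 1605 of Tg in replicate 2. The part of any of these tissues in the muscle values was not tested.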

How the data were processed

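RNA from 1 group of 2 newborn thymus libraries was analysed, grouped by the labels. The deposited gene and transcript tables give expected counts (estimated counts that need not be whole), TPM and, per the file headers, the percent of a gene held by each transcript. The authors' assembly was mm10, per the labels, and their annotation M4, per the deposited text notes. Their aligner and counting program: not given in the sources used here. An effective length 99 bases below the length entered the deposited TPM.

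Mouse gene IDs were matched without version to GENCODE M21 (42462 of 43346, and 39 of 39 members). Another 26248 entries with numeric IDs, and spike-ins, were left out, and TPM was rescaled to 1000000 over mouse genes. Log2 ratios use a pseudocount of 1 TPM and genes that averaged at least 10 counts, and 4-fold calls at least 100. Where a count was 0, folds are lower bounds, taken between shares of the mouse total with the 0 replaced by 3 counts. Transcript shares were recomputed from TPM. Motifs and windows were read with Python 3.11.15. Expected counts were rounded for scaling with edgeR 4.0.16 (TMM) and DESeq2 1.42.0 in R 4.3.3, and neither tool was used for a test. The steps for 4-fold calls and for the counting intervals of ratios were tested on simulated counts. Those counts held counting error only, and the planted changes and ratios were at high or moderate counts. The simulation therefore did not cover the very low counts on which the printed intervals rest.

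The members and lists were chosen with earlier results of these data known. Every member is accounted for, and members with a mean of 10 TPM or more, or 10 or more counts against 0, have both values given. From other lists up to 5 genes by mean TPM, and genes at 10 or more counts against 0, could be named. Murc and Cd205 had no match and stayed out. With 1 value per pup there is no p-value, and levels are mean ± SD of 2. Reads carried no molecular identifiers in the tables. The alternatives were posterior mean estimates, other pseudocounts, count minimums, fold thresholds, scalings and list definitions, and each library alone.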

Additional observations from a re-analysis of the deposited data

How the results depend on the processing

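The median log2 ratio of the 29 members that averaged at least 10 counts was -0.72. It became -0.60 with a pseudocount of 10 TPM, -0.61 with edgeR TMM factors and -0.57 with DESeq2 size factors. Without the filter on low counts, which adds 10 genes at or near 0, the median over all 39 genes was 0. Members read in both libraries fell from 29 to 17 at 10 counts and 11 at 1 TPM, and other muscle genes from 25 to 7 and 4. Among heart genes that averaged at least 10 counts, those higher in replicate 1 went from 11 of 11 to 7 of 7. The 7 were above 3 counts in both libraries, a check chosen after seeing the data. The count of members at least 4-fold apart stayed within 1.5 times its value of 14, from 10 (9 higher in replicate 1 and 1 in replicate 2) with a pseudocount of 10 TPM to 18 at a 2-fold threshold. Shares over all mouse genes were not computed at these other settings, nor at the stricter cuts for genes read in both libraries. The heart percent, 70.6% on average, ranged from 63.8% without Actc1 to 74.0% without Tnnc1, Tnnc2 and Atp2a1, the latter chosen after seeing the data. No setting counted Actc1, Sln, Myl4 or Tnnt2 as skeletal. In each library alone the sums were 746 to 2313 TPM for all members, 388 to 1649 for heart and 232 to 448 for skeletal genes, and the heart percent 62.6% to 78.6%. No paired analysis was possible because there is 1 group. Leaving out a library gave no value for ratios or for genes read in both. Depth limits the low members most, since 23 library values lay between 1 and 20 counts, where a few reads decide the level.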
